A study of Xenopus laevis and Petromyzon marinus with 21 samples.

Results

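The genes described here are regulators of BMP signalling, grouped as BMP feedback genes, in the ectoderm of the frog Xenopus laevis: bambi, szl, smad6, smad6.2, smad7, bmper, twsg1 and nbl1. They were chosen by name, as every row of the frog count table whose name, without the ending .L or .S, is one of these symbols or smad6.1. A feedback role of each gene in these caps was not tested. The rule found 15 rows of 49282, of which 13 passed the filter on low counts that left 24499 genes for testing. This frog is allotetraploid, and the endings .L and .S tell apart its long- and short-chromosome gene copies, each of which was treated as a gene of its own. The remaining 2 rows, smad6.2.S and nbl1.S, were counted too rarely to be tested. No row carried the name smad6.1, and bmper had a .L row alone under the rule.

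The samples are cultured animal caps, the ectoderm explanted from the animal pole of the blastula, of wild-type embryos. Control caps came from uninjected embryos, and induced caps from embryos given wnt8a mRNA, which codes for a Wnt ligand, and mRNA for chordin, a secreted BMP antagonist, together at the 2-cell stage. Both kinds were collected at stages 9, 13 and 17, with 3 libraries in each of the 6 groups, named a, b and c after their columns. Neither mRNA was given by itself and no unrelated mRNA was injected, so what Wnt8a, chordin and injection each did cannot be told apart. The lamprey caps of the study were not used here.

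BMP ligands bind type I and type II receptor kinases, which phosphorylate Smad1, Smad5 and Smad9, and these enter the nucleus with Smad4 and turn on target genes. In the early frog embryo high BMP activity makes epidermis, low activity makes neural plate, and the neural crest arises at the border between them. Several targets of the pathway damp it again: bambi codes for a receptor-like membrane protein without a kinase domain that blocks type I receptors, and smad6 and smad7 code for inhibitory Smads. Sizzled, the product of szl, is a secreted Frizzled-related protein that inhibits the Tolloid proteases that cut chordin. The bmper and twsg1 products, Crossveinless-2 and Twisted gastrulation, are secreted proteins that bind BMPs and chordin, and nbl1 codes for DAN, a secreted antagonist of the DAN family.

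Libraries held 15596247 to 23292078 gene counts (median 19021702), and levels are given as CPM, counts scaled to the size of the library, with TMM factors that correct for composition. Adjusted p-values come from edgeR's quasi-likelihood test over all genes tested, at a threshold of 0.05. The injected genes marked the groups: wnt8a.L was counted 1 to 6 times in control libraries and 145 to 22664 times in induced ones. Summed over 16 neural crest marker rows, levels were 1674 to 2061 CPM in induced caps of stage 13 and 4159 to 4551 CPM at stage 17, against 51.0 to 68.6 and 113 to 121 CPM in control caps. Of those 16 rows, snai2.S, sox10.S and tfap2e.L were at 0 in control caps of stage 13. At stage 9 the same sum was 15.9 to 25.6 CPM in both groups. Epidermal markers (10 rows) summed to 10813 to 14053 CPM in control and 975 to 1853 CPM in induced caps of stage 13, and to 18618 to 26620 and 4461 to 8843 CPM at stage 17, so induced caps were not free of epidermal transcripts. In RNA from whole caps, fewer cells of a type and less RNA per cell cannot be told apart.

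In control caps 12 of the 13 tested members rose between stages 9 and 13. Of all genes tested, 71.3% were called in that comparison (36.2% higher, 35.1% lower). The members rose from near 0 for szl.L and bmper.L and from a level already present for bambi, smad6 and twsg1. In induced caps most members reached far lower levels. For twsg1.L the control rise depended on the scaling, and nbl1.L fell. At stage 13, 10 of the 13 tested members were lower in induced caps, smad6.2.L alone was higher, and smad6.S and nbl1.L did not pass. The counts were the same at stage 17. Among all genes tested, 40.3% were called at stage 13 (21.4% lower, 18.9% higher) and 45% at stage 17 (22.8% lower, 22.2% higher). The share of members called lower, 10 of 13, lay above this background at both stages. The members were chosen with earlier results of these data known, and the .L and .S copies of a gene count separately. That excess is therefore a description and no independent test. The median log2 difference of the 13 members was −3.48 at stage 13 and −2.93 at stage 17, against 0.01 and 0.00 over all genes tested. At stage 9, 2 members, bambi.L and smad7.L, were lower and none was higher, against 0.412% of all genes called in either direction and 0.0653% lower.

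**Figure D1:**
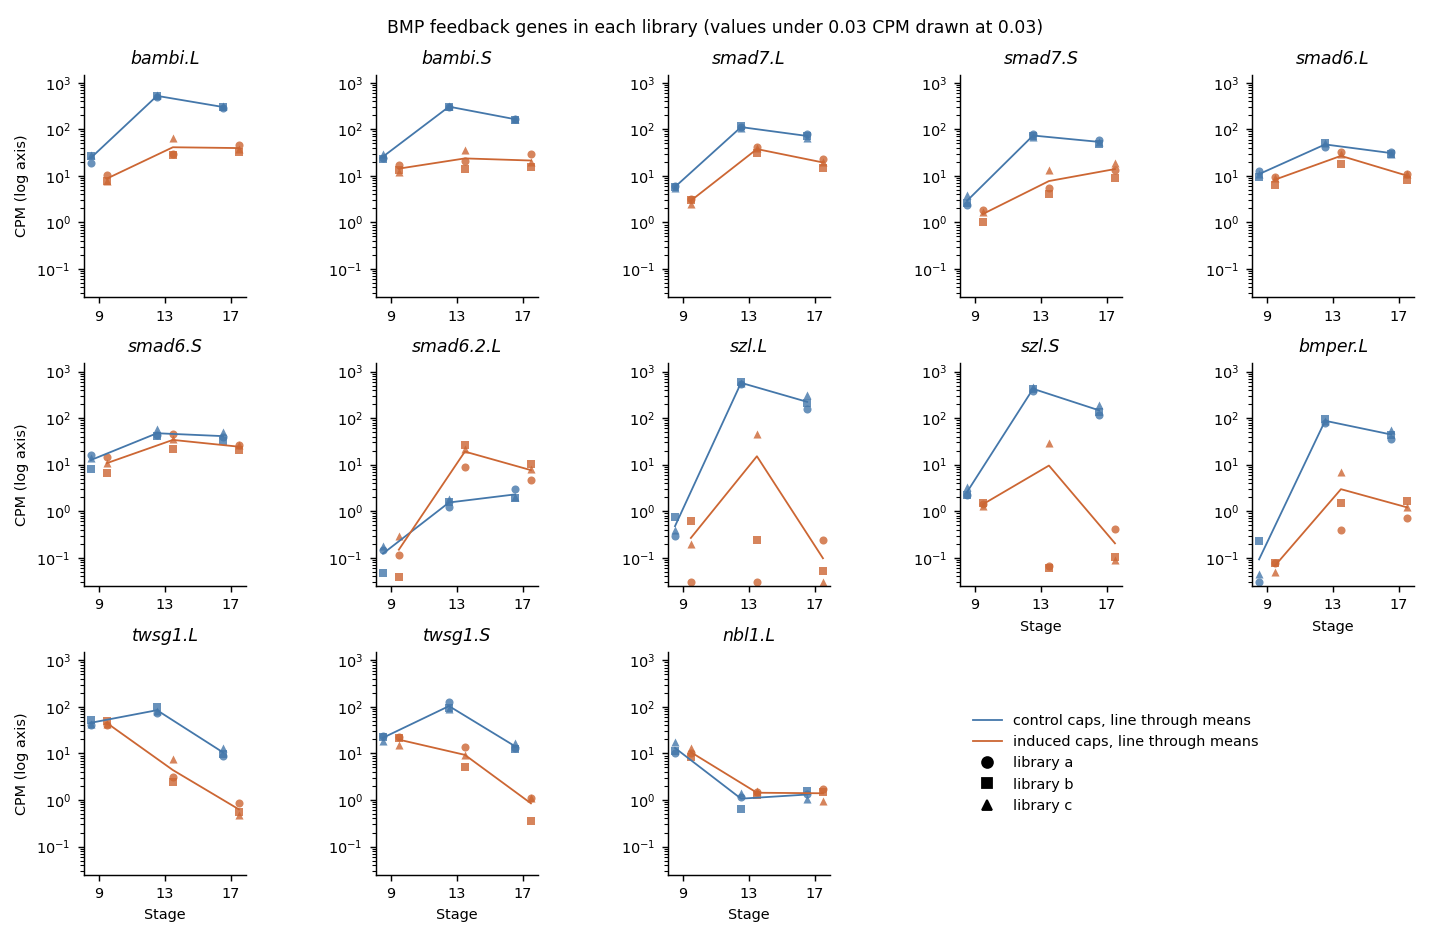
Level of each of the 13 tested members in CPM on a log axis, by stage (9, 13, 17), in control caps (blue) and induced caps (orange). Each point is a library (circle a, square b, triangle c), lines join group means and values under 0.03 CPM are drawn at 0.03. Control caps rise from stage 9 to 13 for 12 members, and library c of the induced caps at stage 13 stands far above a and b for szl.L and szl.S.

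Both copies of the pseudoreceptor gene bambi were lower in induced caps. In control caps bambi.L stood at 18.9, 26.3 and 28.0 CPM in libraries a, b and c of stage 9, at 504, 521 and 543 CPM at stage 13 and at 291, 297 and 314 CPM at stage 17. Induced caps held 10.6, 7.88 and 7.60 CPM at stage 9, 29.1, 27.9 and 66.3 CPM at stage 13 and 46.9, 32.9 and 38.6 CPM at stage 17. Every control library lay above every induced library of its stage. Relative to control caps, the log2 difference of bambi.L was −3.67 ± 0.29 (SE, adjusted p = 2.03e-07) at stage 13 and −2.93 ± 0.28 (adjusted p = 8.76e-07) at stage 17. In the order of the 6 groups, induced caps of stages 13 and 17 overlapped and all other neighbours were apart.

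The second copy, bambi.S, also peaked in control caps of stage 13. Control libraries held 24.6, 23.1 and 29.7 CPM at stage 9, 307, 297 and 314 CPM at stage 13 and 165, 159 and 169 CPM at stage 17. Induced libraries held 17.3, 13.2 and 12.3 CPM, then 20.7, 13.9 and 36.4 CPM, then 28.9, 15.5 and 19.5 CPM. The induced libraries of the 3 stages overlapped one another, and those of stages 13 and 17 overlapped control caps of stage 9. The log2 difference between induced and control caps was −3.69 ± 0.30 at stage 13 (adjusted p = 2.37e-07) and −2.95 ± 0.29 at stage 17 (adjusted p = 1.1e-06).

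At stage 9 the difference in bambi.L was −1.48 ± 0.28 on the log2 scale (adjusted p = 0.0219), with 3 of 3 induced libraries below 3 of 3 control libraries. The call, though not the size of the difference, was lost when the stage 9 libraries were fitted alone (−1.51, adjusted p = 0.19, or −1.50, adjusted p = 0.13, with the letters as replicate block). Leaving out control library b (−1.42, adjusted p = 0.107) or c (−1.38, 0.105), or induced library b (−1.41, 0.14) or c (−1.40, 0.159), also ended it. For bambi.S the stage 9 value was −0.85 with adjusted p = 0.587, which became −0.89 and adjusted p = 0.0166 when the stage 9 libraries alone were fitted with the block.

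The inhibitory Smad gene smad7 was lower as well. For smad7.L the control libraries held 5.95, 5.85 and 5.57 CPM at stage 9, 110, 115 and 109 CPM at stage 13 and 79.3, 71.4 and 64.9 CPM at stage 17. Induced libraries held 3.25, 3.09 and 2.44 CPM, then 42.3, 31.6 and 38.9 CPM, then 23.4, 15.0 and 19.7 CPM. None of the 6 groups overlapped a neighbour, and at each stage the control libraries were higher. The log2 difference between induced and control caps was −1.57 ± 0.17 at stage 13 (adjusted p = 2.97e-06) and −1.89 ± 0.17 at stage 17 (adjusted p = 4.06e-07).

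At stage 9 smad7.L was lower by a log2 difference of −0.98 ± 0.18 (adjusted p = 0.0174), in 3 of 3 libraries. That call was lost without control library a (adjusted p = 0.078), b (0.0809) or c (0.0509) or induced library b (0.0731) or c (0.116), and when the stage 9 libraries were fitted alone (0.745), while it held in that fit with the block (0.00218). The difference itself lay between −0.87 and −1.02 in these settings.

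The other copy, smad7.S, had control values of 2.32, 2.6 and 3.80 CPM at stage 9, 80.3, 71.3 and 68.8 CPM at stage 13 and 58.2, 48.5 and 54.1 CPM at stage 17. In induced caps it held 1.82, 1.02 and 1.71 CPM, then 5.56, 4.01 and 13.6 CPM, then 13.5, 9.17 and 19.3 CPM. Control and induced libraries were apart at every stage, and library c was the highest of the induced caps at stages 13 and 17. The log2 differences were −3.25 ± 0.39 at stage 13 (adjusted p = 9.04e-06) and −1.94 ± 0.37 at stage 17 (adjusted p = 0.000474), and −0.94 at stage 9 did not pass (adjusted p = 1).

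The smad6 copies moved less. In control caps smad6.L went from 12.7, 9.23 and 10.7 CPM at stage 9 to 41.7, 50.4 and 49.7 CPM at stage 13 and 33.2, 29.4 and 29.7 CPM at stage 17. Induced caps held 9.60, 6.45 and 8.77 CPM, then 33.2, 18.3 and 29.0 CPM, then 11.1, 8.0 and 11.2 CPM. Control and induced libraries overlapped at stage 9 and were apart at stages 13 and 17. The log2 difference was −0.40 at stage 9 (adjusted p = 1), −0.82 ± 0.22 at stage 13 (adjusted p = 0.00739) and −1.61 ± 0.23 at stage 17 (adjusted p = 3.19e-05).

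The short-chromosome copy, smad6.S, did not pass at any stage in the fit of all libraries. Control libraries held 15.8, 8.21 and 13.6 CPM at stage 9, 43.2, 40.9 and 57.7 CPM at stage 13 and 39.5, 32.8 and 50.4 CPM at stage 17, and induced libraries 14.7, 6.48 and 11.1, then 45.4, 21.2 and 35.3, then 26.1, 20.2 and 26.5 CPM. The induced values overlapped the control values at stages 9 and 13 and lay below them at stage 17. The log2 differences were −0.48 at stage 13 (adjusted p = 0.261) and −0.75 at stage 17 (adjusted p = 0.0659). With the column letters as replicate block they were −0.53 (adjusted p = 0.0377) and −0.75 (adjusted p = 0.00517), both past the threshold. That block gives each letter a shared effect across stages, a link that was not checked. In fits of the stage 13 libraries alone, with or without the block, smad6.S did not pass at stage 13. At stage 17 smad6.S also passed under DESeq2 (−0.80, adjusted p = 0.0359) and in the fit of the stage 17 libraries alone (−0.73, adjusted p = 0.0138, or 0.0021 with the block), and scaling by totals gave −0.53 (adjusted p = 0.213).

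The related inhibitory Smad gene smad6.2 went the other way. In control caps smad6.2.L was at 0.145, 0.0464 and 0.177 CPM at stage 9, 1.2, 1.58 and 1.83 CPM at stage 13 and 2.94, 1.92 and 2.02 CPM at stage 17. Induced caps started alike, at 0.116, 0.0377 and 0.292 CPM, and reached 8.70, 26.5 and 22.0 CPM at stage 13 and 4.65, 10.3 and 7.90 CPM at stage 17. The stage 9 levels rest on 1 to 4 counts per control library and 1 to 6 per induced library. All induced libraries lay above all control libraries at stages 13 and 17, with a log2 difference of 3.63 ± 0.51 (adjusted p = 3.88e-05) and 1.73 ± 0.47 (adjusted p = 0.00719). Library b was the highest at both stages and library a the lowest.

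Mesoderm and muscle markers, 10 rows, summed to 90.9 CPM in induced library b of stage 13 and to 4.19 and 7.92 CPM in a and c, where smad6.2.L was at 8.70 and 22.0 CPM. In control caps of that stage these markers summed to 1.89 to 5.83 CPM. Neural plate markers, 7 rows, summed to 647 to 694 CPM in the 3 induced libraries of stage 13 and to 19.0 to 27.6 CPM in controls. At stage 17 the mesoderm and muscle sums were 5.13, 3.85 and 35.1 CPM in induced libraries a, b and c. The neural plate sums there were 261, 390 and 281 CPM, and smad6.2.L was at 4.65, 10.3 and 7.90 CPM. The part of either cell type in the level of smad6.2.L was not tested.

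The partner copy smad6.2.S had no count in any control library or in induced caps of stage 9. It had 2, 9 and 8 counts in induced caps of stage 13 and 0, 2 and 1 at stage 17. At stage 13 that made it at least 5.73-fold higher in induced than in control caps, against a floor of 3 counts over the control group. In the same induced libraries of stage 13 smad6.2.L had 133, 443 and 388 counts. The name smad6.2.S had no match in a RefSeq gene table. Whether its few reads came from the .L copy was not tested.

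**Figure D2:**
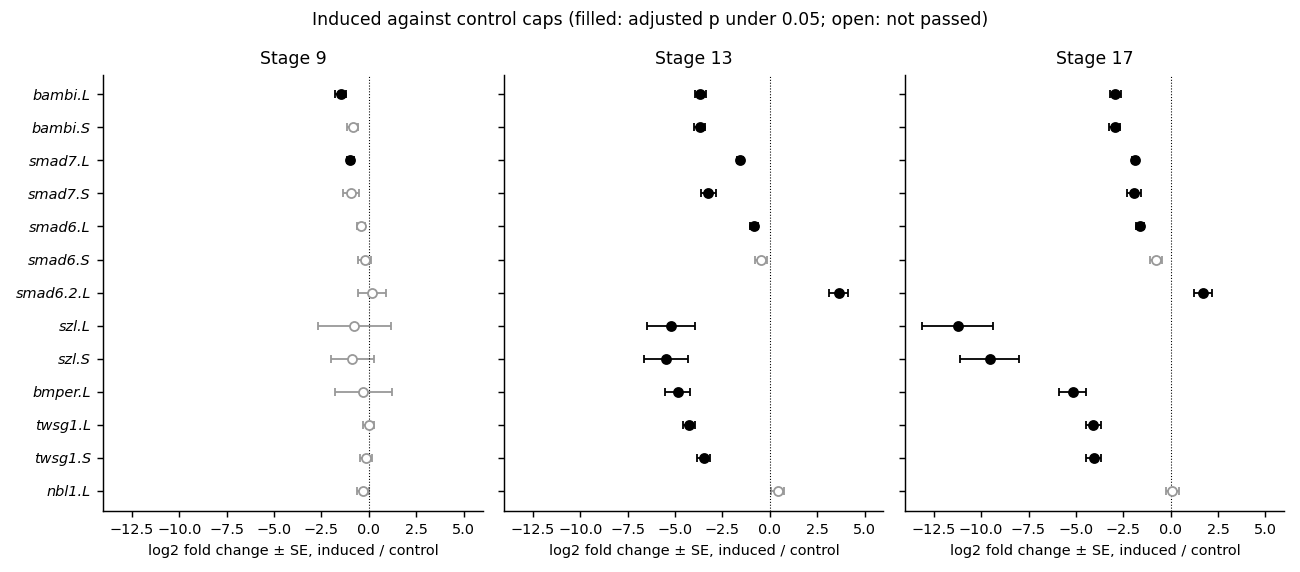
Log2 difference between induced and control caps for the 13 tested members at stages 9, 13 and 17, with bars of 1 SE, from the edgeR fit over all 18 libraries. At stages 13 and 17 all members except smad6.2.L and nbl1.L lie below 0, and szl.L and szl.S reach the lowest values at stage 17.

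The sizzled gene was low in the blastula and in 8 of the 9 induced libraries. In control caps szl.L went from 0.290, 0.742 and 0.398 CPM at stage 9 to 536, 605 and 575 CPM at stage 13, and stood at 155, 209 and 306 CPM at stage 17. Its copy szl.S went from 2.18, 2.23 and 3.32 CPM to 389, 421 and 465 CPM and then 119, 133 and 188 CPM. In both copies the control libraries of stage 13 lay above those of stage 17, and those above every other library.

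Induced caps split at stage 13. Libraries a and b held 0 and 4 counts of szl.L, and library c held 798 counts, or 45.2 CPM. For szl.S the counts were 1, 1 and 504, the last equal to 28.5 CPM. At stage 17 all 3 induced libraries were near empty again, with 4, 1 and 0 counts of szl.L and 7, 2 and 2 counts of szl.S.

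With all libraries, the log2 difference of szl.L at stage 13 was −5.23 ± 1.27 (adjusted p = 0.00355) and that of szl.S −5.47 ± 1.15 (adjusted p = 0.00129). Without induced library c they were −12.07 (adjusted p = 1.54e-07) and −12.57 (adjusted p = 1.23e-09). With c left out, the ratio of control to induced caps was 4541 for szl.L (95% counting interval 1773 to 16668) and 6768 for szl.S (1873 to 55893). In a fit of the stage 13 libraries alone with the replicate block neither call held (−7.82, adjusted p = 0.0831, for szl.L and −7.62, adjusted p = 0.0683, for szl.S), although both differences were larger than in the fit of all libraries. At stage 17 the log2 differences were −11.24 ± 1.89 (szl.L, adjusted p = 0.000171) and −9.55 ± 1.55 (szl.S, adjusted p = 0.00012), and at stage 9 neither copy passed (adjusted p = 1).

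The gene for Crossveinless-2 was barely counted in the blastula. The bmper.L row had 0 to 5 counts per library at stage 9 in either group. Control caps held 79.7, 94.6 and 88.3 CPM at stage 13 and 35.5, 43.0 and 54.5 CPM at stage 17, and induced caps 0.393, 1.5 and 7.02 CPM and then 0.725, 1.67 and 1.23 CPM. Every induced library of stages 13 and 17 lay far below every control library of its stage. The log2 difference was −4.86 ± 0.67 at stage 13 (adjusted p = 3.04e-05) and −5.18 ± 0.69 at stage 17 (adjusted p = 2e-05).

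The twisted gastrulation gene was expressed in the blastula and fell in induced caps. At stage 9 twsg1.L held 41.5, 51.8 and 43.4 CPM in control and 41.2, 50.3 and 43.9 CPM in induced caps, with overlapping libraries and a log2 difference of −0.01 (adjusted p = 1). Stage 13 control caps held 74.9, 98.7 and 81.0 CPM and induced caps 3.14, 2.46 and 7.58 CPM, and at stage 17 8.89, 9.80 and 12.8 against 0.846, 0.557 and 0.483 CPM. The groups were apart at both later stages, and the level at stage 17 was below that at stage 9 in both kinds of caps. The log2 differences were −4.26 ± 0.34 (adjusted p = 1.99e-07) and −4.07 ± 0.38 (adjusted p = 5.69e-07).

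The copy twsg1.S held 24.2, 22.8 and 18.1 CPM in control and 22.7, 21.7 and 15.0 CPM in induced caps of stage 9. Control caps then held 126, 96.6 and 89.4 CPM at stage 13 and 13.3, 12.6 and 16.7 CPM at stage 17, and induced caps 13.5, 5.09 and 9.34 CPM and 1.09, 0.354 and 1.1 CPM. As for the other copy, the groups overlapped at stage 9 and were apart at stages 13 and 17. The log2 differences at these stages were −3.48 ± 0.35 (adjusted p = 1.7e-06) and −4.06 ± 0.39 (adjusted p = 8.73e-07).

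The DAN gene nbl1.L was highest in the blastula. Stage 9 control caps held 10.3, 11.3 and 17.7 CPM, and induced caps 10.1, 8.41 and 13.4 CPM. At stages 13 and 17 the 12 libraries of both groups lay between 0.631 and 1.69 CPM. Induced and control caps overlapped at every stage, with log2 differences of −0.30 (adjusted p = 1), 0.41 (adjusted p = 0.391) and 0.08 (adjusted p = 0.878) at stages 9, 13 and 17. Its copy nbl1.S had 0, 2 and 0 counts in control and 2, 4 and 1 counts in induced caps of stage 9, none at stage 13, and 1 count in 1 library of each group at stage 17.

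Library c of the induced caps at stage 13 stood apart from a and b in part of the family. Its level over the mean of a and b was 377-fold for szl.L and 455-fold for szl.S, 7.42-fold for bmper.L, 2.84-fold for smad7.S, 2.71-fold for twsg1.L, 2.33-fold for bambi.L and 2.1-fold for bambi.S. For smad7.L, smad6.L, smad6.S, smad6.2.L, twsg1.S and nbl1.L the ratio lay between 1.01 and 1.25. In several of these, libraries a and b differed from each other. They held 8.70 and 26.5 CPM of smad6.2.L, 13.5 and 5.09 CPM of twsg1.S, 45.4 and 21.2 CPM of smad6.S, and 33.2 and 18.3 CPM of smad6.L. The 7 rows above 2-fold were all lower in induced than in control caps, as were smad7.L, smad6.L and twsg1.S.

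Among the induced libraries of stage 13, markers of epidermal cell types were highest in the same library, though not these markers alone. In libraries a, b and c of the induced caps at stage 13, goblet and secretory cell markers (7 rows) summed to 628, 266 and 1683 CPM, multiciliated cell markers (10 rows) to 50.7, 62.0 and 186 CPM, ionocyte markers (8 rows) to 40.3, 25.6 and 97.9 CPM and epidermal markers to 1074, 975 and 1853 CPM. No row of these 4 lists was at 0 in that group, and neural crest markers reached 1674, 1970 and 2061 CPM. At stage 17, goblet and secretory markers summed to 5196 to 14030 CPM in induced caps and epidermal markers to 4461 to 8843 CPM. Multiciliated cell markers were at 53.7 to 68.7 CPM there and ionocyte markers at 39.9 to 110 CPM, while szl.L had 0 to 4 counts per library. The part of these cells in the level of szl and the other members in library c was not tested. Without library c, 11 members were still called at stage 13, with log2 differences of −4.17 for bambi.L, −4.12 for bambi.S, −3.92 for smad7.S, −6.48 for bmper.L and −4.90 for twsg1.L. Of all genes, 9127 were called without library c (4406 higher, 4721 lower).

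**Figure D3:**
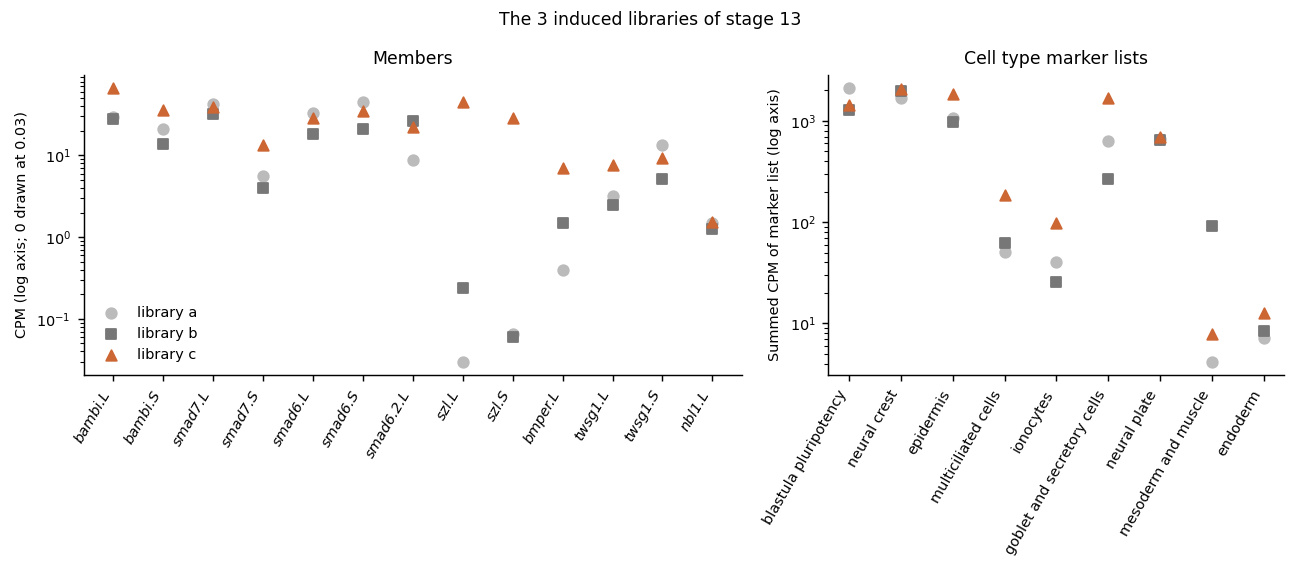
Levels of the 13 tested members in CPM on a log axis in the 3 induced libraries of stage 13 (a, b, c). Library c lies far above a and b for szl.L and szl.S, by 377-fold and 455-fold over their mean, while for smad6.L, smad6.S and smad7.L library a is the highest and b the lowest.

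Through time, control caps raised 12 of the 13 members from stage 9 to 13, against 71.3% of all genes called (36.2% higher, 35.1% lower), with nbl1.L as the one that fell (−3.60 ± 0.36 on the log2 scale, adjusted p = 2.01e-07). The rise was 4.42 ± 0.30 for bambi.L, 3.57 ± 0.30 for bambi.S, 4.27 ± 0.19 for smad7.L, 4.66 ± 0.42 for smad7.S, 2.12 ± 0.23 for smad6.L, 1.91 ± 0.33 for smad6.S and 3.55 ± 0.61 for smad6.2.L. For the secreted proteins it was 10.24 ± 1.65 for szl.L, 7.37 ± 1.27 for szl.S, 9.91 ± 0.93 for bmper.L, 2.26 ± 0.33 for twsg1.S and 0.90 ± 0.29 for twsg1.L. The last (adjusted p = 0.012) became 0.11 (adjusted p = 0.761) when libraries were scaled by their totals, a scaling that moved the median log2 difference of all genes by −0.79 in this comparison and left 33.9% of calls higher in place of 50.8%. It also missed the threshold without control library b of stage 13 (0.78, adjusted p = 0.0501).

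From stage 13 to 17 in control caps, 6 members fell, none rose and 7 did not pass, against 39.1% of all genes called (20.1% higher, 19% lower). The log2 change was −3.01 for twsg1.L (adjusted p = 4.5e-06), −2.87 for twsg1.S (adjusted p = 1.19e-05), −0.80 for bambi.L (adjusted p = 0.0251), −0.90 for bambi.S (adjusted p = 0.0154), −0.63 for smad7.L (adjusted p = 0.00602) and −0.62 for smad6.L (adjusted p = 0.0354). When the libraries of the 2 groups were fitted alone, 10 members were called, among them szl.L, szl.S, bmper.L and smad7.S, all lower. That fit called 10522 of all genes (5310 higher, 5212 lower), against 9572 in the fit of all libraries. The calls of bambi.L and smad6.L missed the threshold with 1 library fewer, at almost the same difference. For bambi.L leaving out any 1 of the 6 gave −0.77 to −0.83 (adjusted p from 0.052 to 0.0639), and for smad6.L leaving out control b or c of stage 13 or of stage 17 gave −0.57 to −0.61 (adjusted p from 0.0861 to 0.0935).

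In induced caps, 10 members rose and 3 fell from stage 9 to 13, against 70.6% of all genes called (35% higher, 35.5% lower). The largest rise was that of smad6.2.L, 7.01 ± 0.63 (adjusted p = 6.6e-08), followed by szl.L, 5.77 (adjusted p = 0.00331), and bmper.L, 5.33. These rises start from few counts per stage 9 library: 1 to 6 for smad6.2.L, 0 to 16 for szl.L and 1 to 2 for bmper.L. The inhibitory Smad genes rose by 3.68 (smad7.L, adjusted p = 1.95e-10), 2.35 (smad7.S), 1.70 (smad6.L) and 1.66 (smad6.S), and bambi.L by 2.24 (adjusted p = 2.9e-06). Those that fell were twsg1.L (−3.35, adjusted p = 1.73e-07), nbl1.L (−2.89, adjusted p = 1.63e-06) and twsg1.S (−1.09, adjusted p = 0.00696). Over these stages twsg1.S thus rose in control caps and fell in induced caps. The same held for twsg1.L in the main fit, though its control rise depended on the scaling. When the induced libraries of stages 9 and 13 were fitted alone, 9 members were called, 6 higher and 3 lower. That fit called 14533 of all genes (7047 higher, 7486 lower), against 17289 in the fit of all libraries. Any member that could not be fitted there counts as not called.

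The rise of szl in induced caps rested on library c of stage 13. Without it, szl.L changed by −1.06 (adjusted p = 0.473) and szl.S by −4.34 (adjusted p = 1.72e-05) in place of 2.77 (adjusted p = 0.0366). For szl.S the rise also missed the threshold with the replicate block (2.04, adjusted p = 0.13) and without any 1 induced library of stage 9 (2.75 to 2.82, adjusted p from 0.0809 to 0.0849). The rise of bambi.S, 0.73 (adjusted p = 0.0269), was 0.08 (adjusted p = 0.81) under scaling by totals, 0.30 (adjusted p = 0.272) without library c of stage 13, and missed the threshold without induced library b (0.69, adjusted p = 0.0683) or c (0.65, 0.0808) of stage 9. Scaling by totals moved the median of all genes by −0.65 here and left 35.2% of calls higher in place of 49.7%.

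From stage 13 to 17 in induced caps, 7 members fell and 6 did not pass, against 39.7% of all genes called (21% higher, 18.7% lower). The fall was −2.82 for twsg1.L and −3.45 for twsg1.S, −1.41 for smad6.L (adjusted p = 0.000159), −0.96 for smad7.L (adjusted p = 0.000311) and −1.32 for smad6.2.L (adjusted p = 0.0301). The last missed the threshold without induced libraries b (−1.01, adjusted p = 0.143) or c (−1.22, 0.0807) of stage 13, or a (−1.07, 0.124) or c (−1.35, 0.0731) of stage 17, and under scaling by totals (−1.12, 0.0749). For szl.L (−7.37, adjusted p = 0.00512) and szl.S (−5.62, adjusted p = 0.00714) the fall was gone without library c of stage 13 (−0.52, adjusted p = 0.832, and 1.49, adjusted p = 0.208). For smad7.S the change was 0.85 (adjusted p = 0.0761), which passed with the replicate block (0.90, adjusted p = 0.0162), under scaling by totals (adjusted p = 0.0421) and without library c of stage 13 (1.54, adjusted p = 0.00142) or b of stage 17 (adjusted p = 0.0438). For bmper.L a fall passed without library a of stage 13 (−1.80, adjusted p = 0.0183). By totals, 65.8% of all calls in this comparison were higher in place of 52.8%.

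Whether the difference between induced and control caps itself changed was tested as an interaction. From stage 9 to 13 it became more negative for 6 members and more positive for smad6.2.L, against 21.6% of all genes called (12.7% lower, 8.88% higher). The change was −4.25 for twsg1.L (adjusted p = 1.03e-05), −3.35 for twsg1.S (adjusted p = 0.000109), −2.84 for bambi.S (adjusted p = 0.000113), −2.18 for bambi.L (adjusted p = 0.000709), −2.30 for smad7.S (adjusted p = 0.00636) and −4.60 for szl.S (adjusted p = 0.0435). For smad6.2.L it was 3.46 (adjusted p = 0.0124), or 3.2 (adjusted p = 0.0563) without control library c of stage 9. The szl.S value missed the threshold under DESeq2 (−4.54, adjusted p = 0.0543), scaling by totals (−4.42, 0.0512), no filter (−4.54, 0.138) or a fit of these groups alone (−4.56, 0.101), and without any 1 of the 6 control libraries or the 3 induced libraries of stage 9 (−4.46 to −4.79, adjusted p from 0.0602 to 0.0907). It held with the replicate block (−5.43, adjusted p = 0.023), and without library c of the induced caps at stage 13 it was −11.70 (adjusted p = 1.98e-08). Without library c of the induced caps at stage 13, szl.L (−11.30, adjusted p = 3.09e-05) and bmper.L (−6.19, adjusted p = 0.00547) passed as well, and DESeq2 called bmper.L with all libraries (−4.45, adjusted p = 0.00387).

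From stage 13 to 17 edgeR called no member, against 8.1% of all genes (4.03% higher, 4.07% lower), and 5 of the 13 had an unadjusted p under 0.05, as did 5193 of the 24499 genes tested. DESeq2 called 1, smad6.2.L (−1.98, adjusted p = 0.0368). With the replicate block 2 passed, smad6.2.L (−1.94, adjusted p = 0.0459) and smad7.S (1.37, adjusted p = 0.0323). Without library c of the induced caps at stage 13, 4 passed: bambi.L (1.29, adjusted p = 0.00482), bambi.S (1.22, adjusted p = 0.024), smad7.S (2.03, adjusted p = 0.00565) and szl.S (3.06, adjusted p = 0.0406). Without library a of that group, smad6.2.L (−2.25, adjusted p = 0.0444) and szl.L (−6.59, adjusted p = 0.0418) passed. Of all genes, 1984 were called by edgeR, 2850 by DESeq2 and 2934 with the replicate block. Without library c of that group 2059 were called, and without library a 1535.

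The 5 genes with both copies tested, bambi, smad6, smad7, szl and twsg1, allow the copies to be set against each other within a library, which needs no scaling between libraries. The log2 ratio of the .L to the .S count of smad6 averaged −0.16 ± 0.29, 0.01 ± 0.26 and −0.39 ± 0.32 (SD, n = 3) in control caps of stages 9, 13 and 17, and −0.32 ± 0.30, −0.31 ± 0.12 and −1.27 ± 0.05 in induced caps. Averaged over stages, the ratio in induced caps minus that in control caps was −0.45 (two-sided exact permutation test within stages, unadjusted p = 0.00675, 8000 relabellings, smallest p possible 0.00025). That test does not use the pairing by letter. In pairs of libraries with the same letter the ratio was lower in the induced library in 8 of 9, and exact sign flips of the 9 differences gave an unadjusted p of 0.00781 (smallest possible 0.00391). In limma over all 5739 gene pairs, of which 31% were called, the adjusted p was 0.0117 for smad6 and 0.0397 for smad7. For smad7 the mean shift was 0.64 (exact permutation, unadjusted p = 0.0675), most of it from stage 13, where it was 1.86, and for bambi (−0.18), szl (−0.99) and twsg1 (−0.19) neither test passed. A single stage allows no p below 0.1.

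**Figure D4:**
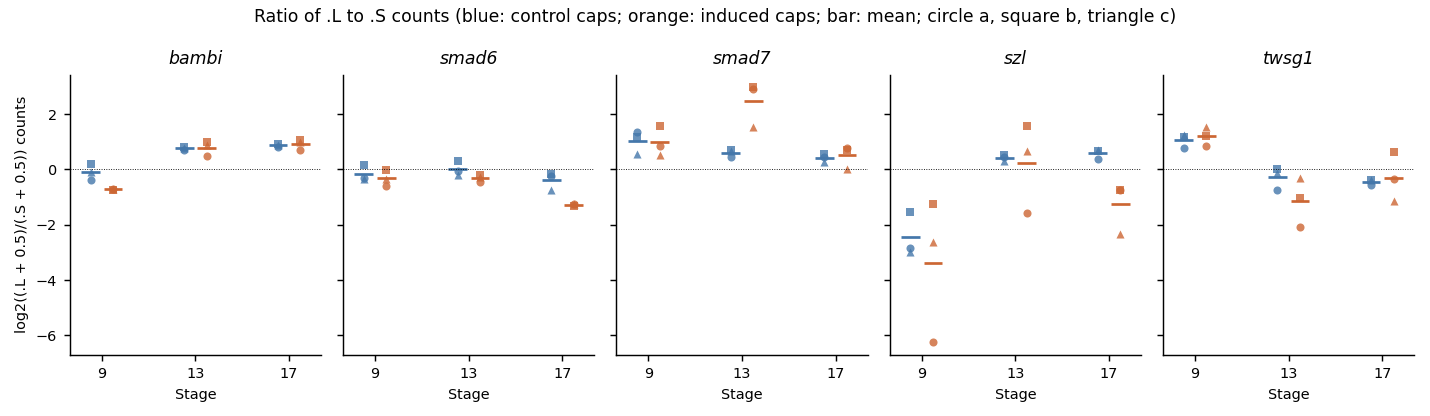
Log2 ratio of the .L to the .S count for 5 genes with both copies tested, in control (blue) and induced caps (orange) at stages 9, 13 and 17. Each point is a library, and for smad6 at stage 17 the induced libraries lie below the control libraries.

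In the blastula the bambi copies were about equal in control caps, at a log2 ratio of −0.09 ± 0.28, and −0.71 ± 0.02 in induced caps. At stages 13 and 17 the ratio was 0.77 ± 0.05 and 0.87 ± 0.05 in control and 0.79 ± 0.27 and 0.92 ± 0.20 in induced caps. The ratio of twsg1 turned over time in both kinds of caps, from 1.07 ± 0.26 at stage 9 to −0.29 ± 0.41 and −0.44 ± 0.12 in control caps. For szl the control ratio was 0.43 ± 0.11 and 0.58 ± 0.17 at stages 13 and 17, and the induced libraries other than c of stage 13 held too few counts for a stable ratio.

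Across the 18 libraries, the genes with a mean of at least 5 CPM whose log2 CPM ran closest to bambi.L were pcdh10.L (Pearson r = 0.973), man1b1.L and smad7.S (0.968), and tctn3.L and cep135.L (0.965). For szl.L they included cfap52.S and the row Xelaev18002015m (0.972), dlec1.L (0.971) and mcidas.S (0.969). For smad6.2.L they were atxn7l3.S (0.980), arhgap36.L (0.977), p2ry4.L (0.972), ncam1.S (0.971) and c7orf26.L (0.970). For nbl1.L they were plxna1.L (0.981), ska2.L (0.978), and ralb.L, trim2.L and cdc27.S (0.977). These values describe likeness over libraries that share 6 group means, among 15530 genes compared (15531 for nbl1.L), and smad7.S is the only member among them.

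The rest of the pathway moved in both directions. Of 14 tested BMP ligand rows, 5 were higher and 5 lower in induced caps at stage 13, with a median log2 difference of −0.96. Of 8 rows of secreted BMP antagonists, chordin apart, 4 were higher and none lower (median 6.83), and of 12 receptor rows 4 were higher and 4 lower (median −0.43). Smad transducers, the receptor-activated Smads and Smad4, had 1 of 8 higher and 6 lower (median −1.47), the chordin and BMP proteases 1 of 5 higher and 3 lower (median −1.28), and the ubiquitin ligases and other Smad and receptor regulators 2 of 13 higher and 5 lower (median −0.20). Of 33 rows of transcriptional BMP targets, 8 were higher and 15 lower (median −1.34).

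At stage 17 the counts were 5 and 5 of 14 ligands, 5 and 0 of 8 antagonists, 4 and 3 of 12 receptors, 0 and 4 of 8 Smad transducers, 2 and 2 of 5 proteases, 0 and 3 of 13 regulators and 6 and 15 of 33 targets, higher and lower in turn. At stage 9, 2 ligand rows and 1 antagonist row were higher, and 1 target row was higher and 7 lower, while no row of the other 4 lists passed. Over all genes tested, 0.347% were higher and 0.0653% lower at stage 9, 18.9% and 21.4% at stage 13, and 22.2% and 22.8% at stage 17. At stage 17 the regulators had 3 of 13 rows lower and none higher, and the receptors 3 of 12 lower and 4 higher. Both lists lay close to the background of that stage for lower rows.

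Single genes show the range. At stage 9 the ligand genes admp.S (4.63 ± 0.51) and admp.L (4.54 ± 0.43), which code for an organiser BMP-like ligand, and nog.L (4.47 ± 0.61), which codes for the antagonist noggin, were higher in induced caps on the log2 scale. The targets id3.L (−3.76 ± 0.47), id3.S (−3.17 ± 0.40) and dlx3.S (−2.74 ± 0.45) were lower, the last without a call when induced library c was left out (−2.66, adjusted p = 0.0554) and at −3.63 without b. For nog.L the value was 3.59 without induced library c and 5.59 without control library a, and for id3.L −4.38 without induced library b. At stage 13 the type I receptor gene bmpr1b.S stood at 147 ± 16.3 CPM (SD, n = 3) in induced and 0.120 ± 0.101 CPM in control caps, a log2 difference of 10.27 ± 0.45. The antagonist gene cer1.S was higher by a ratio of 1443 (95% counting interval 259 to 57017) and admp.L at least 101-fold higher. The cer1.S ratio rests on 1 count in the control caps, and its induced libraries spread widely, at 32.9 ± 23.8 CPM (SD, n = 3). The ligand gene bmp7.1.S (−5.07 ± 0.87), the epidermal regulator gata3.S (−4.91 ± 0.93) and smad9.S (−4.77 ± 0.65) had the largest differences in the other direction. In these, the induced libraries spread widely, from 0 to 4.58 CPM for bmp7.1.S, 0.300 to 23.1 CPM for gata3.S and 0.120 to 2.32 CPM for smad9.S. Without induced library c the differences were −9.07, −8.21 and −6.65, all still called.

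At stage 17 bmpr1b.L was at least 816-fold higher, bmpr1b.S higher by a ratio of 1616 (553 to 7837) and fst.L, which codes for follistatin, at least 65.9-fold higher. The induced libraries spread widely for fst.L, at 3.69 ± 3.16 CPM (SD). Lower were gata3.S (−7.76 ± 1.12), bmp7.1.S (−7.41 ± 0.98) and gata3.L (−5.59 ± 0.81). All these genes passed the test in the stage named. Without 1 library gata3.S reached −8.58 and gata3.L −6.26 (without induced library a), both still called. In the same comparison szl.L was at −11.24 and szl.S at −9.55.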

How the data were processed

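The authors deposited raw read counts per gene for 18 frog libraries, and these counts were used as they are. Per the labels' protocols, poly(A) mRNA was selected and a directional library kit used. Per the submitters' processing notes, fastp 0.23.2, STAR 2.6.0 and HTSeq 1.99.2 were used. No source used here gives the genome build, the annotation or whether strand was used in counting, so reads of near-identical copies and of antisense genes are uncertain. The summary lines of HTSeq were left out of library sizes and tests. A RefSeq gene table matched 14 of the 15 member names and supplied no values.

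Differences were tested with edgeR 4.0.16 in R 4.3.3 (quasi-likelihood test, TMM, filterByExpr, robust, two-sided) over all 18 libraries together. Adjusted p-values are Benjamini-Hochberg values over 24499 genes, with a threshold of 0.05. CPM values are scaled by TMM factors, which ran from 0.785 to 1.40. SE of a log2 difference was derived from the F statistic. Alternatives were DESeq2 1.42.0, its size factors, library totals, no filter, fits of the groups compared alone, the column letters as replicate block, and each library left out in turn. A block in the fits of the groups compared alone, sign flips by letter for the copy ratios and limma 3.58.1 over all gene pairs were added after seeing the data. The test was checked on simulated data with 200 changed genes.

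The members and lists were chosen with earlier results of these data known. All tested members are named. From the pathway lists, the 3 called genes with the largest difference in each direction are named at each stage. For likeness, the 5 tested genes with the highest correlation are named, except 1 that is not reported here. The letters a, b and c stand in column names and in no label. Libraries with the same letter deviated together from their group means in induced and control caps of the same stage (r from 0.333 to 0.828 in the 9 pairs), so the letters were taken to pair them. The main fit did not use this pairing. In the fit of all libraries, the replicate block gave each letter a shared effect across stages. Whether a letter links libraries of different stages was not checked. No 2 libraries were identical. The labels name no separate clutches, so p-values measure only how these samples vary, in part perhaps for technical reasons. Counting intervals and floors cover counting error only.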

Additional observations from a re-analysis of the deposited data

Results flagged for a closer look

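The difference between induced and control caps changed from stage 9 to stage 13, by edgeR's interaction test, for 7 of the 13 members. Of all genes tested, 21.6% were called (12.7% lower, 8.88% higher). On the log2 scale the change was −2.18 for bambi.L, −2.84 for bambi.S, −2.30 for smad7.S, −4.60 for szl.S, −4.25 for twsg1.L, −3.35 for twsg1.S and 3.46 for smad6.2.L. With 1 library left out, the szl.S call was lost in 9 of 12 fits and the smad6.2.L call in 1 of 12. The szl.S call was also lost under DESeq2, scaling by totals, no filter and a fit of these groups alone. No value was tested as far from the others of its group, since groups hold 3 libraries.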

How the results depend on the processing

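Of 117 member values in 9 comparisons, 7 could not be fitted with only the groups compared. With the replicate block in the fit of all libraries, 12 members were called at each of stages 13 and 17. That block changed no member call other than those given with the results. In induced caps it called 12 from stage 9 to 13 and 8 from 13 to 17. For the change of the difference from stage 13 to 17 it called 2. That last count was 1 under DESeq2 and 1 with only the groups compared and the block. With only the groups compared, 0 members were called at stage 9, and 10 in control caps from stage 13 to 17 (10 with the block). In induced caps such fits called 9 from stage 9 to 13 (9 with the block) and 5 from 13 to 17 (6 with the block). Leaving out 1 library gave 0 to 2 calls at stage 9 and 11 at stages 13 and 17. From stage 9 to 13 and 13 to 17 it gave 12 to 13 and 4 to 5 in control caps. In induced caps it gave 11 to 13 and 5 to 8, and for the changes of the difference 5 to 9 and 0 to 4. Of all genes, such fits called 51 to 184 at stage 9, 8067 to 9165 at stage 13 and 9136 to 10236 at stage 17. In the same order, they called 16567 to 17033 and 7473 to 8487 in control caps. They called 16297 to 16813 and 7862 to 9204 in induced caps, and 4232 to 5248 and 1261 to 2059 for the changes. Among all genes, the block in the fit of all libraries called 11255 at stage 13 in place of 9877 and 12711 at stage 17 in place of 11013. In induced caps it called 18395 from stage 9 to 13 in place of 17289, and 11565 from 13 to 17 in place of 9723. Fits of the groups alone called 10522 in control caps from stage 13 to 17 in place of 9572. In induced caps they called 14533 from stage 9 to 13 and 9167 from 13 to 17.

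Signs turned when 1 library was left out for values that missed the threshold or rested on library c of stage 13. At stage 9 these were bmper.L (−0.93 to 1.5), smad6.2.L (−0.66 to 0.64), smad6.S (−0.53 to 0.038), twsg1.L (−0.10 to 0.089) and twsg1.S (−0.25 to 0.030), and at stage 17 nbl1.L (−0.077 to 0.29). In induced caps they were szl.L (−1.06 to 7.36) and szl.S (−4.34 to 3.37) from stage 9 to 13, and bambi.L (−0.28 to 0.46), bambi.S (−0.43 to 0.29), bmper.L (−1.80 to 0.34), nbl1.L (−0.21 to 0.17) and szl.S (−6.58 to 1.49) from 13 to 17. For the change of the difference they were smad6.S (−0.51 to 0.052) from stage 9 to 13, and bmper.L (−0.82 to 1.35), szl.L (−7.63 to 0.87), szl.S (−5.04 to 3.06) and twsg1.L (−0.074 to 0.87) from 13 to 17. Scaling by totals gave bambi.L 0.13, bambi.S 0.031 and nbl1.L 0.15 in induced caps from stage 13 to 17. With only the groups compared and the block, bambi.L was 0.029 there and szl.S −0.64 from stage 9 to 13. The cause was not tested.

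For the copies, the smad6 shift was −0.16, −0.33 and −0.88 at single stages and −0.52 to −0.40 with 1 library left out, where its unadjusted p ran from 0.00275 to 0.0155, and adjusted over the 5 pairs it missed the threshold in 8 of 18 such fits. Neither the exact test by letter (replicate block) nor a pseudocount of 2 changed a call. Single stages turned the sign for bambi (0.015 and 0.050 at stages 13 and 17), smad7 (−0.046 at stage 9) and twsg1 (0.13 and 0.15 at stages 9 and 17), and smad7 (0.64) passed in limma over all pairs. Over all genes, 101 were called at stage 9, 188 by DESeq2, 10 with only the groups compared and 629 with the block as well, and 1984 for the change of the difference from stage 13 to 17, 3926 with only the groups compared and the block. By totals, the share of calls that were higher was 61.5% at stage 17 in place of 49.3%, and 64% in place of 49.7% for that change, where the median of all genes moved by 0.23 and 0.15. It moved by 0.14 for the change from stage 9 to 13 and by 0.20 in induced caps from stage 13 to 17. Rows of a few counts, such as szl in induced caps, limit the precision of a fold.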
